A study of Homo sapiens with 12 samples.

Results

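The genes described here are the collagens and the enzymes and chaperone that process them, 58 genes of the 18417 genes measured with Affymetrix Human Gene 1.0 ST arrays in SK-mel147, an established human melanoma cell line. The members were chosen by name: 43 genes whose symbol has the form of a collagen chain (COL, a type number, A, a chain number), the collagen chaperone SERPINH1, 6 prolyl hydroxylases, 3 lysyl hydroxylases and 5 lysyl oxidases. Each gene was read from its brightest probe set carrying a single gene symbol, and COL17A1 was not analysed here. The 12 arrays came from cells infected with lentiviral plasmids that express a short hairpin RNA, with 2 arrays for each of 6 hairpins. Hairpins sh_37 and sh_38 were labelled as directed against H2AZ2, the gene of the histone variant H2A.Z.2. Hairpins sh_83 and sh_84 were labelled as directed against H2AZ1, the gene of H2A.Z.1. A scrambled and a luciferase hairpin served as controls, so every group, the controls included, carried a hairpin construct, and uninfected SK-mel147 cells were not analysed here. All groups were 1 cell line, and nothing in the labels says that the 2 arrays of a hairpin were infected separately; their p-values reflect array-to-array spread, which may be technical. The second array titled sh_84 carries another hairpin name in its RNAi field, and the title was followed.

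Collagens are secreted as helices of chains wound round each other. In the endoplasmic reticulum, prolyl and lysyl hydroxylases modify the chains and the chaperone HSP47, encoded by SERPINH1, binds the folded helix. After secretion the ends are trimmed, fibrillar collagens assemble into fibrils, collagen IV forms the network of basement membranes, and lysyl oxidases crosslink the assembled chains. In melanoma, collagen is laid down by fibroblasts of the stroma and by the tumour cells themselves, and basement membrane collagen IV is a barrier that invading cells meet.

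COL4A1 and SERPINH1 were the members with the lowest adjusted p in the comparison of the pooled H2AZ2 hairpins with control, and their upstream sequences are shown for that reason. The genes of the collagen IV chains lie head to head in pairs, so that members of a pair share the sequence between their start sites. By RefSeq on GRCh38.p14, COL4A1 and COL4A2 are separated by 126 bases, at chr13:110307158-110307283 on the plus strand, with 80.2% G and C. The capitals mark a CCAAT box and a GC box (GGGCGG).

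COL4A1 to COL4A2: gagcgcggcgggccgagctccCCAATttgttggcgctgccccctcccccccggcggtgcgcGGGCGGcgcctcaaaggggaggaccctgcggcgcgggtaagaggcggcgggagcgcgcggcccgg

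COL4A4 and COL4A3 are separated by 418 bases on chromosome 2, and COL4A6 and COL4A5 by 379 bases on the X chromosome, in the same arrangement. RefSeq gives 2 start sites for COL4A6, and the 379 bases are counted from the site nearer to COL4A5. The RefSeq table lists 2 SERPINH1 start sites, and the 250 bases before the first lie at chr11:75562003-75562252 on the plus strand. Their capitals mark a heat shock element, searched as TTC, any 2 bases, GAA, any 2 bases and TTC, and a TATATA run. The window before the second start site holds neither of them, and holds a CCAAT box and a GC box.

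SERPINH1: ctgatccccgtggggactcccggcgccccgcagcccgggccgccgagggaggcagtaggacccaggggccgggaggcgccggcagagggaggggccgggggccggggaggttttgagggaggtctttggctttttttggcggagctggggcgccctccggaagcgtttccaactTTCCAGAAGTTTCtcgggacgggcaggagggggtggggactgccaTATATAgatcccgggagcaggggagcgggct

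Of the 58 genes, 44 had such a 250-base window in the RefSeq promoter table, and a gene with several start sites was counted if any of its windows held the letters. Searched on both strands, the heat shock element was found for 1 of the 44 genes, SERPINH1, and for 0.557% of 27305 genes. A CCAAT box was in 15 of the 44 (34.1%) against 37.0% of all, and GGGCGG in 30 (68.2%) against 46.2%. TATATA was in 2 of the 44 (COL10A1 and SERPINH1), or 4.55%, against 4.6% of all genes. These matches describe letters in a window and were not tested for function.

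Values are log2 intensities after robust multi-array averaging (RMA), a normalization that puts all arrays on a common scale. Differences are on the log2 scale with their standard error (SE), and a gene is said to have risen or fallen where the limma p-value adjusted over all 18417 genes (Benjamini-Hochberg) was under 0.05. H2AZ2 was 11.00 ± 0.05 (SD, n = 4) in the control arrays. It fell by 1.12 with sh_37 (adjusted p = 1.13e-05) and by 0.61 with sh_38 (adjusted p = 0.00204). H2AZ1 fell by 2.38 with sh_83 (adjusted p = 1.31e-06). In the arrays labelled sh_84 it differed from control by -0.12 (adjusted p = 0.859), so these arrays did not show the loss their label states, and every value given for the H2AZ1 hairpins together includes them. Of 8 measured melanocyte and neural crest markers, SOX10 (10.62 in the control arrays), PAX3 and MITF were bright, while the pigment cell genes PMEL, MLANA, TYR and TYRP1, and S100B, were among the dimmest 25% of genes.

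With both H2AZ2 hairpins pooled, 5 of the 58 genes rose against control and none fell: COL4A1, COL4A2, COL5A1, SERPINH1 and P4HA2. Over all genes, 0.863% rose and 2.44% fell (3.31% in either direction). The members' share that rose was larger than this background, which ran mostly downward. The members were chosen with earlier results of these data known, so the larger share is not a test of the group. With the H2AZ1 hairpins together, none of the 58 genes was called by limma (0% of all genes were called), and 1 had an unadjusted p under 0.05, as did 636 of all genes. H2AZ1 itself, the targeted gene, was not called there either, at -1.25, with the arrays labelled sh_84 included. The absence of calls can therefore not show that members did not respond to loss of H2AZ1. The comparison of H2AZ2 with H2AZ1 hairpins called 4 members higher, COL4A1, SERPINH1, P4HA2 and LOXL4, and none lower, where 2.08% of all genes were higher and 2.28% lower (4.35% in either direction). Its differences use no control arrays.

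**Figure D1:**
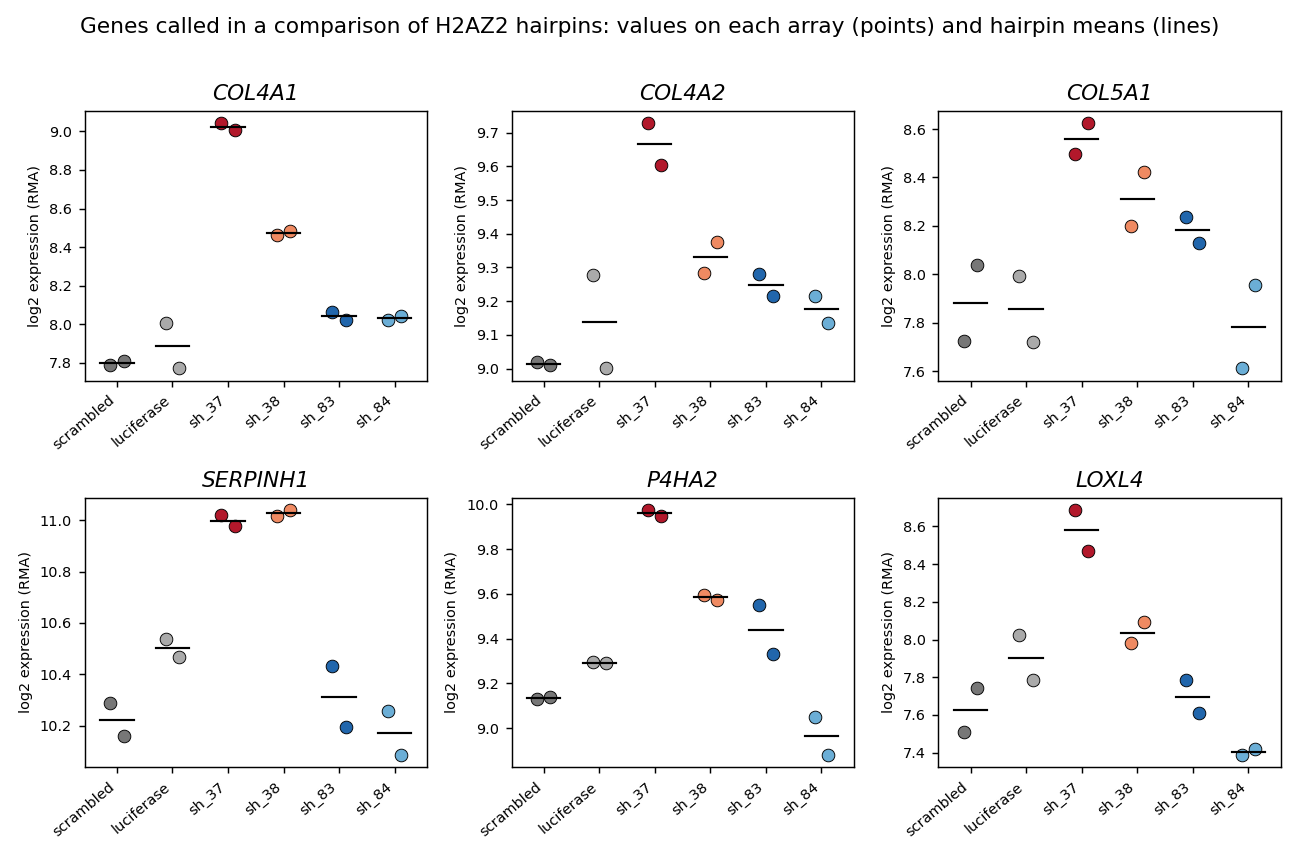
Log2 intensity (y axis) of COL4A1, COL4A2, COL5A1, SERPINH1, P4HA2 and LOXL4, the members called in either comparison of the H2AZ2 hairpins, in each of the 12 arrays, grouped by hairpin on the x axis. Each point is an array and each line the mean of the 2 arrays of a hairpin. The COL4A1 points of sh_37 (9.04 and 9.01) and sh_38 (8.46 and 8.49) lie above every other array, and the SERPINH1 points of both hairpins lie near 11.02.

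Collagen IV, the network-forming collagen of basement membranes, was measured as 6 genes. With the H2AZ2 hairpins 2 of them rose, where 0.863% of all genes did. COL4A1 read 7.79 and 7.81 with the scrambled hairpin and 8.01 and 7.77 with luciferase, against 9.04 and 9.01 with sh_37 and 8.46 and 8.49 with sh_38. Both H2AZ2 hairpins therefore stood above all control arrays, and sh_37 stood highest. The arrays labelled sh_83 read 8.06 and 8.02 and those labelled sh_84 read 8.02 and 8.04, just above the highest control array and well below sh_38. The mean was 7.84 ± 0.11 (SD, n = 4) in control, 8.75 ± 0.32 with the H2AZ2 hairpins and 8.04 ± 0.02 with the H2AZ1 hairpins. COL4A1 rose 1.87-fold with the H2AZ2 hairpins (0.91, SE 0.13, limma adjusted p = 0.00482) and was 0.71 (SE 0.13) above the H2AZ1 hairpins (adjusted p = 0.009). The difference of the H2AZ1 hairpins from control was 0.19 (adjusted p = 1).

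By single hairpin, COL4A1 rose 2.27-fold with sh_37 (adjusted p = 9.15e-06) and 1.55-fold with sh_38 (adjusted p = 0.00205). The 2 responses themselves differed by 0.55 (SE 0.09, adjusted p = 0.00535), and H2AZ2 was also lower with sh_37 than with sh_38. Whether the difference in COL4A1 follows that difference was not tested. The call against control held with any 1 array left out, but was lost with either control hairpin left out whole (0.95, adjusted p = 0.0518 without luciferase, and 0.86, adjusted p = 0.0606 without scrambled). The call of sh_37 against sh_38 was lost without replicate 1 of sh_37 (adjusted p = 0.0639), and the call against the H2AZ1 hairpins without the arrays labelled sh_84 (0.71, adjusted p = 0.102).

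COL4A2, the partner chain read from the other side of the 126 bases shown above, moved less. It read 9.02 and 9.01 with scrambled, 9.28 and 9.00 with luciferase, 9.73 and 9.60 with sh_37 and 9.28 and 9.38 with sh_38. All H2AZ2 arrays were above all control arrays, but replicate 1 of sh_38 cleared replicate 1 of luciferase only narrowly. COL4A2 rose 1.34-fold with the H2AZ2 hairpins (0.42, SE 0.11, adjusted p = 0.0454). The call rested on sh_37 (0.59, SE 0.09, adjusted p = 0.00168), while sh_38 gave 0.25 (adjusted p = 0.154). The arrays of sh_83 (9.28 and 9.22) and those labelled sh_84 (9.22 and 9.14) lay at or below the highest control array to 2 decimals, and COL4A2 was 0.29 above the H2AZ1 hairpins (adjusted p = 0.16). The call with both H2AZ2 hairpins held only when the array left out was luciferase replicate 1, sh_38 replicate 1 or sh_83 replicate 1, and was lost with each of the other 9 (adjusted p up to 0.19).

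The other 4 chains, COL4A3 to COL4A6, which form the more specialised collagen IV networks, were dim, at 5.91 to 6.33 in the control arrays. Their differences with the H2AZ2 hairpins were 0.09 for COL4A3, 0.09 for COL4A4, 0.25 for COL4A5 and 0.24 for COL4A6, and none was called. Low intensity limits what these probe sets can show. Over all genes, the 5 whose profile across the 12 arrays was most like that of COL4A1 were CLSTN2 (Pearson r 0.98), FSTL3 (0.98), FAM171A1 (0.97), PODXL2 (0.97) and SH3RF2 (0.97). COL4A2 came 8th with r 0.96. These correlations describe arrays that share hairpins and carry no p.

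Of 11 fibrillar collagens, the chains of the rope-like fibrils, only COL5A1 was called with the H2AZ2 hairpins together. Over all genes, 3.31% were called in that comparison. COL5A1 encodes a chain of collagen V, which starts and limits the width of collagen I fibrils. It read 7.73 and 8.04 with scrambled, 7.99 and 7.72 with luciferase, 8.50 and 8.63 with sh_37 and 8.20 and 8.42 with sh_38. The H2AZ2 arrays did not overlap the controls, but they overlapped the sh_83 arrays (8.24 and 8.13). COL5A1 rose 1.48-fold (0.57, SE 0.14, adjusted p = 0.0463). It was 0.45 above the H2AZ1 hairpins (adjusted p = 0.0962). The call against control held only without scrambled replicate 2, sh_38 replicate 1, sh_83 replicate 1 or replicate 1 of the arrays labelled sh_84, and was lost with each of the other 8 arrays left out (adjusted p up to 0.218), and with quantile normalization (adjusted p = 0.0574) or the dimmest genes removed (adjusted p = 0.0526).

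COL1A1, a chain of collagen I, was close to the threshold. Its arrays read 7.54 and 8.01 with scrambled, 7.85 and 7.69 with luciferase, 8.40 and 8.52 with sh_37 and 8.03 and 8.14 with sh_38. All 4 H2AZ2 arrays were above the controls, sh_38 only just. The difference was 0.50 (SE 0.13, adjusted p = 0.0561) for both hairpins together, 0.69 (adjusted p = 0.00401) for sh_37, a rise, and 0.31 (adjusted p = 0.194) for sh_38. The sh_83 arrays read 7.96 and 8.02, the second just above the highest control array. Those labelled sh_84 read 7.71 and 7.89, within the control range. Its partner COL1A2 differed by 0.14 with the H2AZ2 hairpins. COL3A1, the chain of collagen III, read 6.54 and 6.85 with scrambled, 6.58 and 6.27 with luciferase, 6.69 and 6.91 with sh_37 and 6.68 and 6.95 with sh_38, so all but the highest arrays overlapped the controls (0.25, adjusted p = 0.334). Neither was called in any comparison.

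Across the 4 H2AZ2 arrays and the 4 control arrays, 7 members lay wholly above the controls (COL1A1, COL4A1, COL4A2, COL5A1, COL24A1, SERPINH1 and P4HA2), where 4.14% of all genes did. The 2 lysyl hydroxylases PLOD2 and PLOD3 lay wholly below, where 7.46% of all genes did. COL24A1, a dim fibrillar chain, differed by 0.24 (adjusted p = 0.206). For the 4 H2AZ1 arrays, COL4A1 was the only member wholly above the controls and PLOD3 the only 1 below, against 0.755% and 2.58% of all genes.

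SERPINH1 encodes HSP47, the chaperone that binds procollagen in the endoplasmic reticulum, and among the 3 members that rose with both H2AZ2 hairpins its 2 responses were closest. It read 10.29 and 10.16 with scrambled, 10.54 and 10.47 with luciferase, 11.02 and 10.98 with sh_37 and 11.02 and 11.04 with sh_38. The H2AZ2 arrays spanned a narrow range, far above the higher control hairpin. The arrays of sh_83 read 10.43 and 10.19 and those labelled sh_84 read 10.26 and 10.09, within or just below the control range. SERPINH1 rose 1.57-fold (0.65, SE 0.10, adjusted p = 0.00565) against control and was 0.77 above the H2AZ1 hairpins (adjusted p = 0.00268). The rise was 0.64 with sh_37 (adjusted p = 0.00111) and 0.67 with sh_38 (adjusted p = 0.00282), and the difference between them was -0.03 (95% interval -0.26 to 0.20, adjusted p = 0.928). Luciferase was the higher control, by 0.28 (adjusted p = 0.661), and with scrambled left out the call against control was lost (0.51, adjusted p = 0.069).

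Prolyl hydroxylases add the hydroxyl groups that hold the collagen helix together. With the H2AZ2 hairpins 1 of the 6 rose, where 0.863% of all genes did. P4HA2, a catalytic subunit of prolyl 4-hydroxylase, read 9.13 and 9.14 with scrambled, 9.29 and 9.29 with luciferase, 9.98 and 9.95 with sh_37 and 9.59 and 9.57 with sh_38. Both hairpins were above all controls and apart from each other. The H2AZ1 arrays split to either side of the controls, 9.55 and 9.33 with sh_83 and 9.05 and 8.88 in those labelled sh_84. P4HA2 rose 1.48-fold (0.56, SE 0.14, adjusted p = 0.045), with 0.75 for sh_37 (adjusted p = 0.000245) and 0.37 for sh_38 (adjusted p = 0.0316), and these differed by 0.38 (adjusted p = 0.0444). The call for both hairpins against control held without sh_38 replicate 1 or 2, sh_83 replicate 1 or replicate 2 of the arrays labelled sh_84, and was lost without any of the other 8 arrays (adjusted p up to 0.169). The call for sh_38 alone was lost without scrambled replicate 1 or any array of luciferase, sh_37 or sh_38 (adjusted p up to 0.213). That for sh_37 against sh_38 held only without an array of scrambled or sh_83 (adjusted p up to 0.253 otherwise). P4HA2 was 0.57 above the H2AZ1 hairpins (adjusted p = 0.0367), a call lost without replicate 1 of scrambled or luciferase, replicate 2 of sh_83, or either array of sh_37 or labelled sh_84 (adjusted p up to 0.0988). P4HA1, the other main catalytic subunit, read 7.90 and 7.53 with scrambled, 8.08 and 8.25 with luciferase, 8.23 and 7.96 with sh_37 and 8.19 and 7.76 with sh_38, all H2AZ2 arrays within the control range. It differed by 0.09 (adjusted p = 0.791) and was not called in any comparison.

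P3H2, a prolyl 3-hydroxylase that acts on collagen IV, had the largest response of all members, and it was seen with sh_37. It read 6.82 and 6.87 with scrambled, 6.89 and 6.89 with luciferase, 8.79 and 8.88 with sh_37 and 6.71 and 6.82 with sh_38. The sh_38 arrays were level with or just below the controls, and sh_83 (7.15 and 7.15) was slightly above them. P3H2 rose 3.90-fold with sh_37 (1.97, SE 0.07, adjusted p = 1.25e-07) and differed from control by -0.10 with sh_38 (adjusted p = 0.428). The difference between the 2 hairpins was 2.07 (adjusted p = 7.36e-07), and with any 1 array left out both calls held.

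**Figure D2:**
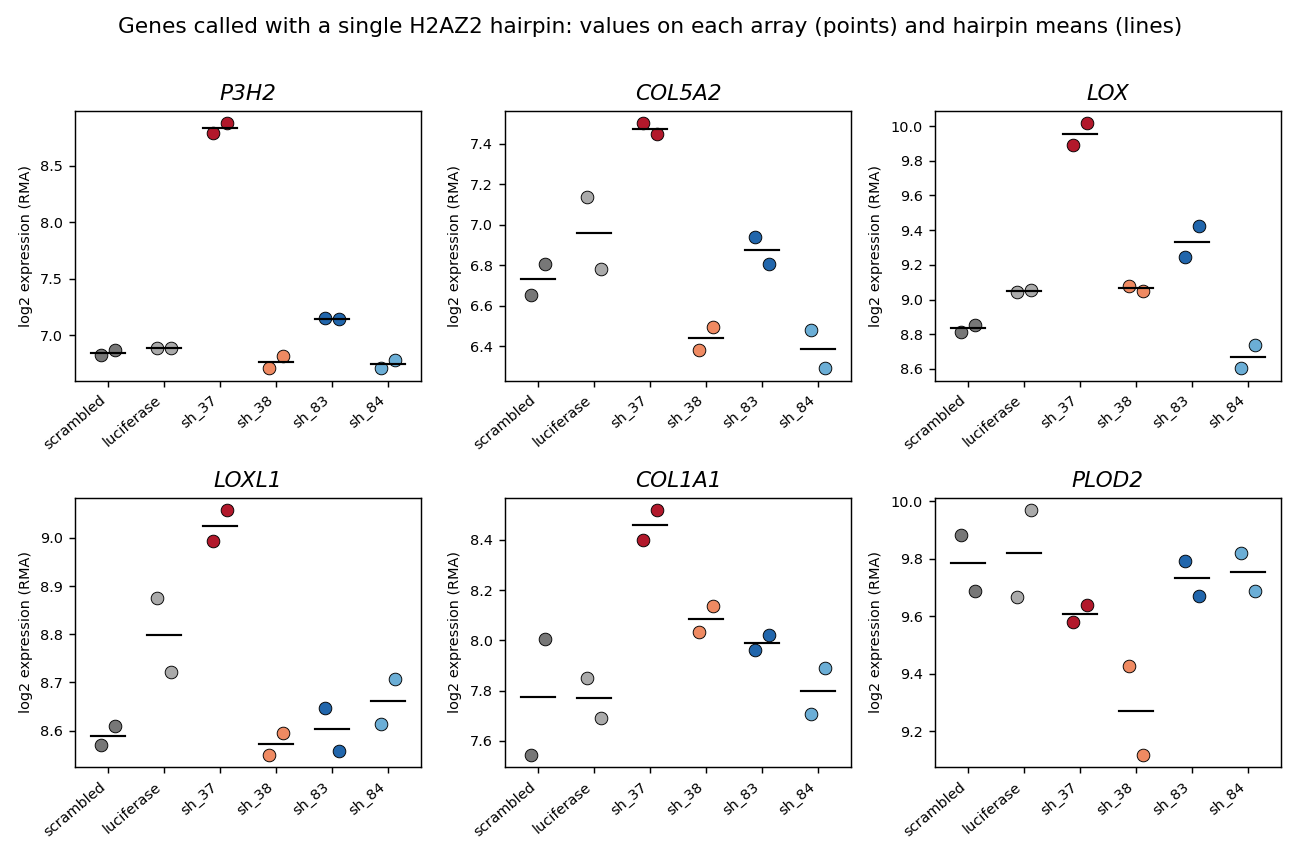
Log2 intensity (y axis) of P3H2, LOX, COL5A2, COL1A1, LOXL1 and PLOD2 in each of the 12 arrays, grouped by hairpin on the x axis. Each point is an array and each line the mean of the 2 arrays of a hairpin. P3H2 and LOX stand apart with sh_37 while their sh_38 arrays lie near the controls, and PLOD2 is lowest with sh_38.

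Lysyl oxidases are the secreted enzymes that crosslink collagen and elastin. With sh_37, 3 of the 5 rose, where 5.72% of all genes did. LOX read 8.81 and 8.85 with scrambled, 9.04 and 9.05 with luciferase, 9.89 and 10.02 with sh_37 and 9.08 and 9.05 with sh_38. LOX rose 2.02-fold with sh_37 (1.01, SE 0.08, adjusted p = 3.45e-05), and the sh_38 arrays were level with luciferase (0.12 from control, adjusted p = 0.403). The response differed between the hairpins by 0.89 (adjusted p = 0.000376). LOX was also the member nearest to a call with sh_83 (9.24 and 9.42, a difference of 0.39, adjusted p = 0.0736), where 5 alternative settings called it, and it read 8.60 and 8.74 in the arrays labelled sh_84.

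LOXL4 read 7.51 and 7.74 with scrambled, 8.02 and 7.78 with luciferase, 8.69 and 8.47 with sh_37 and 7.98 and 8.09 with sh_38. The sh_38 arrays overlapped the controls. It rose with sh_37 (0.81, adjusted p = 0.000644) and differed by 0.27 with sh_38 (adjusted p = 0.193). It was 0.76 higher with the H2AZ2 than with the H2AZ1 hairpins (adjusted p = 0.0178). The arrays labelled sh_84 (7.39 and 7.42) were the lowest, and leaving out either of them ended that call (adjusted p up to 0.0545). LOXL1 rose by a smaller amount with sh_37 (0.33, SE 0.08, adjusted p = 0.0169), with arrays at 8.99 and 9.06 against 8.57 to 8.88 in control and 8.55 and 8.60 with sh_38, and the call was lost without either sh_37 array (adjusted p up to 0.173). The calls of LOXL4 (0.54, adjusted p = 0.0251) and LOXL1 (0.45, adjusted p = 0.013) between sh_37 and sh_38 were each lost without any array of these 2 hairpins (adjusted p up to 0.242 and 0.111). LOXL2, the brightest member at 11.97 in control, and LOXL3 differed by 0.11 and -0.15 with the H2AZ2 hairpins and were not called.

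Lysyl hydroxylases make the residues used for crosslinks and for sugar attachment, and they were the class with a negative median difference, -0.16 over 3 genes with the H2AZ2 hairpins. PLOD2, which sets the crosslink type of fibrillar collagen, read 9.88 and 9.69 with scrambled, 9.67 and 9.97 with luciferase, 9.58 and 9.64 with sh_37 and 9.43 and 9.12 with sh_38. It fell by 0.53 with sh_38 (SE 0.12, adjusted p = 0.0275), the only member that fell in any comparison. Without replicate 2 of sh_38 the difference was -0.38 (adjusted p = 0.352), and the call was also lost without scrambled replicate 1, luciferase replicate 2 or either sh_37 array. The values for both H2AZ2 hairpins together were -0.36 for PLOD2 (adjusted p = 0.126), -0.16 for PLOD3 (adjusted p = 0.298) and 0.04 for PLOD1.

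Taken hairpin by hairpin, sh_37 raised 12 members and lowered none, where 5.72% of all genes rose and 7.19% fell. They were COL1A1, COL5A1, COL5A2, COL4A1, COL4A2, COL6A1, SERPINH1, P3H2, P4HA2, LOX, LOXL1 and LOXL4. With sh_38, 3 rose (COL4A1, SERPINH1 and P4HA2) and 1 fell, where 1.28% of all genes rose and 3.33% fell. The direct comparison of sh_37 with sh_38 called 7 members higher with sh_37, against 4.07% of all genes higher and 2.2% lower (6.27% in either direction): COL4A1, COL5A2, P3H2, P4HA2, LOX, LOXL1 and LOXL4. No member was lower with sh_37 than with sh_38. The rises of COL4A1 and SERPINH1 with both hairpins, and those of COL4A2, P4HA2, P3H2, LOX and LOXL4 with sh_37, held with any 1 array left out.

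COL5A2, the partner of COL5A1 in collagen V, went apart between the 2 hairpins. It read 6.65 and 6.81 with scrambled, 7.14 and 6.78 with luciferase, 7.50 and 7.45 with sh_37 and 6.38 and 6.50 with sh_38. The sh_37 arrays were above every control and the sh_38 arrays below every control. COL5A2 rose by 0.63 with sh_37 (SE 0.11, adjusted p = 0.00358), a call lost without sh_37 replicate 1 (adjusted p = 0.0534), while sh_38 gave -0.41 (adjusted p = 0.0659). The difference between the hairpins was 1.03 (SE 0.13, adjusted p = 0.000893) and held with any 1 array left out. COL5A1 in the same cells differed by 0.25 between the hairpins (adjusted p = 0.461).

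COL6A1, a chain of the beaded collagen VI, rose with sh_37 (0.43, SE 0.11, adjusted p = 0.0247), with arrays at 8.44 and 8.58 against 7.92 to 8.24 in control, and sh_38 read 8.20 and 8.35, across the top of the control range. That call was lost without scrambled replicate 1, luciferase replicate 2 or either sh_37 array (adjusted p up to 0.244). Calls of COL1A1 and COL5A1 with sh_37 were lost without its replicate 2 (adjusted p = 0.064 and 0.0805). COL18A1, the source of endostatin, read 8.61 and 8.75 with scrambled, 8.78 and 8.52 with luciferase, 8.86 and 8.92 with sh_37 and 8.69 and 8.88 with sh_38, with sh_38 overlapping the controls. It differed by 0.17 with the H2AZ2 hairpins (adjusted p = 0.341) and was not called in any comparison.

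**Figure D3:**
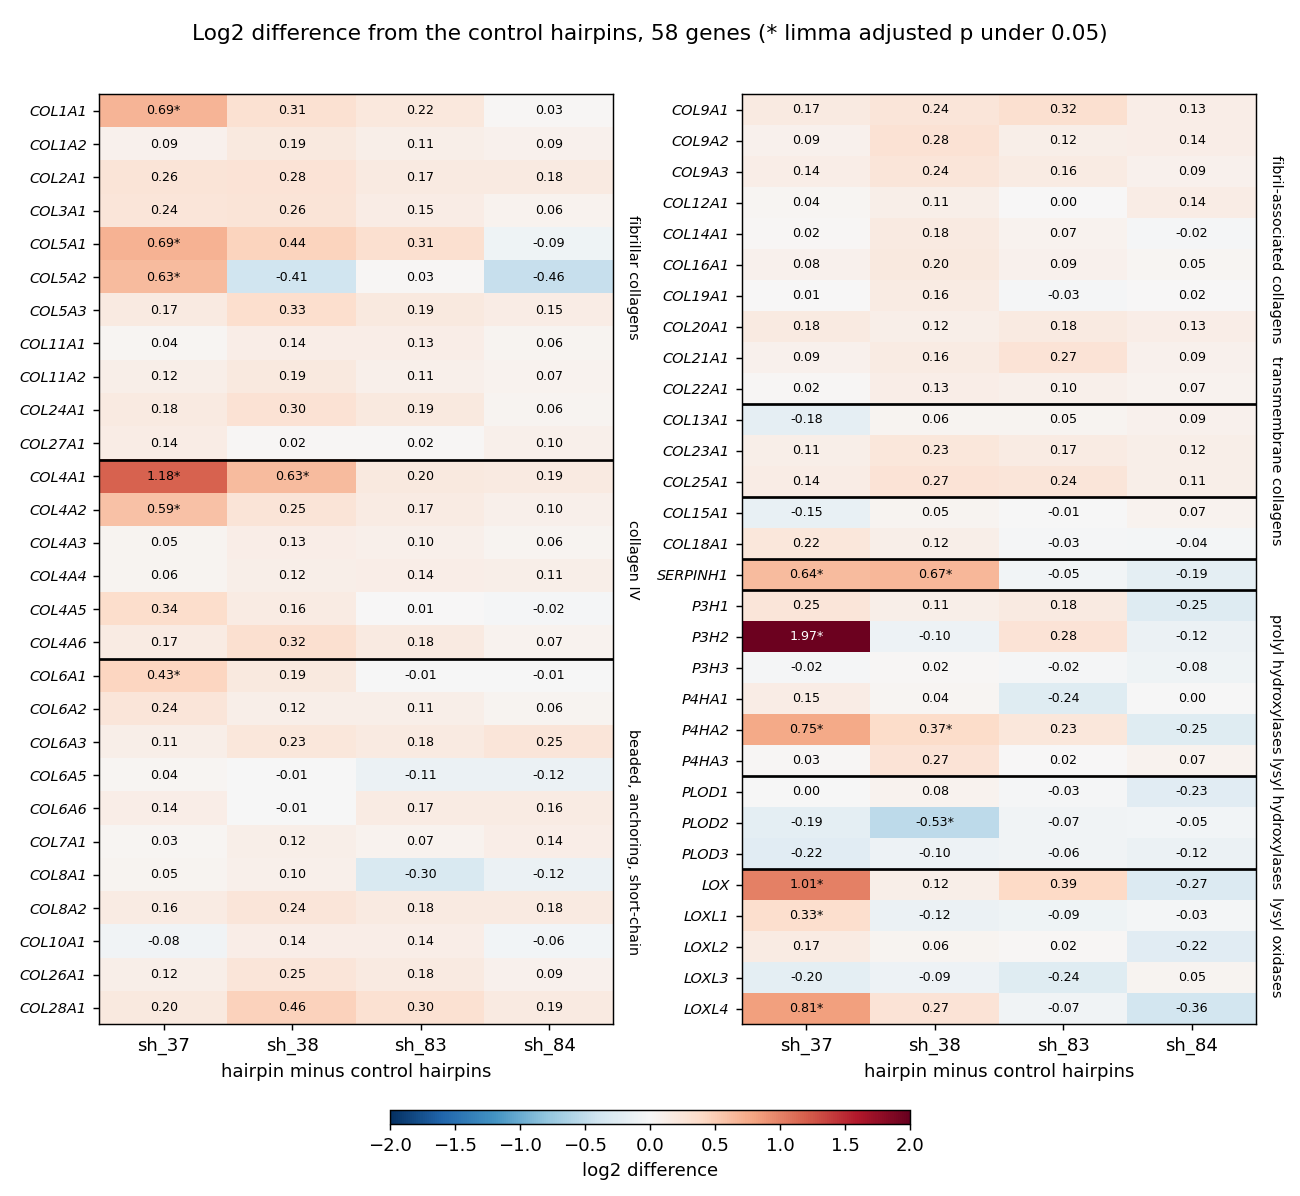
Difference from control on the log2 scale (colour) of all 58 members (rows, grouped by class) for each of the 4 hairpins against H2AZ2 or H2AZ1 (columns), each the mean of 2 arrays minus the mean of the control hairpins. Marked cells have an adjusted p under 0.05: 12 with sh_37, 4 with sh_38 and none in the 2 columns labelled for H2AZ1.

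By class, the H2AZ2 hairpins together called 1 of 11 fibrillar chains, 2 of 6 collagen IV chains, 1 of 1 chaperone and 1 of 6 prolyl hydroxylases, all higher, where 0.863% of all genes were higher and 3.31% were called in either direction. None was called of 11 beaded, anchoring and short-chain collagens, 10 fibril-associated collagens, 3 transmembrane collagens, 2 multiplexins, 3 lysyl hydroxylases and 5 lysyl oxidases. Class medians of the difference were 0.24 for fibrillar chains, 0.25 for collagen IV, 0.17 for beaded, anchoring and short-chain collagens, 0.13 for fibril-associated collagens, 0.17 for transmembrane collagens, 0.17 for prolyl hydroxylases and 0.11 for lysyl oxidases. Over all 58 members the median was 0.15, with 53 above 0. Over all genes it was 0.03, with 10375 of the 18417 above 0.

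An upward median of the dimmer collagens was also present between the 2 control hairpins. Of the 43 collagens, 30 were dimmer than the median gene and 15 were among the dimmest 25% of all genes. The 30 dimmer collagens had a median difference of 0.14 with the H2AZ2 hairpins, while scrambled minus luciferase, a comparison of the 2 controls, gave 0.20, with 25 of the 30 above 0. All genes dimmer than the median moved by 0.07 in each of these comparisons, with 6536 and 6048 of the 9208 above 0. The medians of the dimmer collagens by array ran from 6.11 to 6.40 in control and from 6.20 to 6.48 with the H2AZ2 hairpins. The 13 brighter collagens had a median of 0.18 with the H2AZ2 hairpins, against -0.03 for all brighter genes, and 0.03 between the controls. No member was called between the 2 controls by limma (0% of all genes were), where 7 members (12.1%) had an unadjusted p under 0.05, as did 7.51% of all genes.

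**Figure D4:**
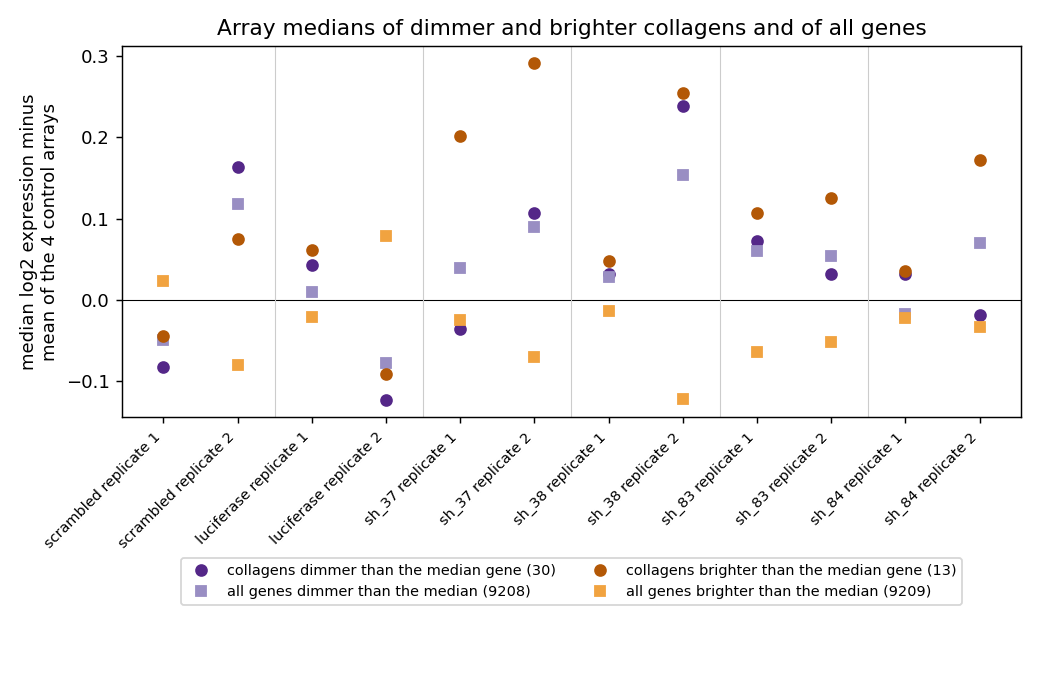
Median log2 intensity of the collagens dimmer (30) and brighter (13) than the median gene, and of all dimmer and brighter genes, in each array (x axis, grouped by hairpin), minus the mean of that median over the 4 control arrays (y axis). Each point is an array: the dimmer collagens span -0.12 to 0.16 over the control arrays and -0.04 to 0.24 over the H2AZ2 arrays, so the ranges overlap.

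No member was called by limma against control for sh_83, where 0.152% of all genes rose and 0.489% fell (0.641% in either direction). None was called for the arrays labelled sh_84 either, where 0.0109% rose and 0.342% fell (0.353%). For sh_83, 9 members (15.5%) had an unadjusted p under 0.05, as did 10.2% of all genes, and for the arrays labelled sh_84, 8 members (13.8%) did, against 8.36%. Most members lay on the same side of control in both sets of arrays, 33 above and 12 below, and 13 of the 58 lay on opposite sides. Both differences subtract the same control arrays, which by itself draws them to the same side. The share over all genes was not counted, so these counts do not show that the hairpins acted alike. Among the 13, P4HA2 differed from control by 0.23 for sh_83 and by -0.25 for sh_84 as labelled, LOX by 0.39 and -0.27, and P3H2 by 0.28 and -0.12. COL5A2 was 0.03 and -0.46 from control, while COL4A1 was 0.20 and 0.19 (adjusted p = 0.419 and 0.553). Differences between these 2 hairpins were not tested.

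Of 41 other genes of the pathway (procollagen proteinases, endoplasmic reticulum partners, secretion factors, basement membrane partners, receptors and fibril-binding proteins), 39 were measured. None was called by limma with the H2AZ2 hairpins together, where 3.31% of all genes were. Of the 39, 12 (30.8%) had an unadjusted p under 0.05, as did 17.0% of all genes, and the median difference was 0.13. The 2 largest differences were those of LUM, the fibril-binding proteoglycan lumican (0.82, adjusted p = 0.182), and BMP1, the proteinase that cuts the procollagen C-terminal end (0.40, adjusted p = 0.0879). With sh_37, where 5.72% of all genes rose and 7.19% fell, 12 of the 39 rose and 1 fell. The 12 were LUM (1.27), FN1 (0.83), HSPG2 (0.66), BMP1 (0.62), LAMC1 (0.60), LAMB1 (0.51), DDR1 (0.49), ADAMTS2 (0.43), PXDN (0.41), SEC24D (0.35), COLGALT1 (0.33) and ITGB1 (0.26), and FKBP10, a procollagen-binding prolyl isomerase, fell by 0.51. They included the laminin chains LAMB1 and LAMC1, perlecan (HSPG2) and peroxidasin (PXDN), which share the basement membrane with collagen IV.

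With sh_38, where 1.28% of all genes rose and 3.33% fell, LUM rose (0.38) and 3 of the 39 pathway genes fell. The 3 were SEC23A, part of the coat of vesicles that leave the endoplasmic reticulum (-0.87), NID2 (-0.51) and FN1 (-0.48). Fibronectin (FN1) therefore moved in opposite directions with the 2 hairpins, reading 12.51 and 12.48 with sh_37, 11.27 and 11.10 with sh_38 and 11.54 to 11.78 in control. LUM read 10.19 and 9.98 with sh_37 and 9.22 and 9.17 with sh_38. Its controls were themselves apart, at 8.46 and 8.41 with scrambled and 9.14 and 9.25 with luciferase, and it fell by 0.85 in the arrays labelled sh_84 (adjusted p = 0.00396).

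Markers of other cell types that could make collagen were read beside these genes. Of 10 fibroblast markers, 5 were among the dimmest 25% of genes, none was called with the H2AZ2 hairpins, and their median by array spanned 5.95 to 6.24 in control, 6.07 to 6.20 with the H2AZ2 hairpins and 5.92 to 6.24 with the H2AZ1 hairpins. LUM is on that list, was the 1 fibroblast marker that rose with sh_37 or sh_38, and was bright in control (8.81 ± 0.44, SD, n = 4), while DCN was at 3.46. No endothelial, keratinocyte or leukocyte marker was called with the H2AZ2 hairpins, where 3.31% of all genes were. With the H2AZ2 hairpins pooled, PAX3 was the 1 melanocyte marker that fell (-0.49, adjusted p = 0.0265). With sh_37 alone 2 fell, PAX3 and SOX10, and with sh_38 alone PAX3 fell. In such bulk RNA, fewer cells of a kind and less RNA per cell cannot be told apart.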

How the data were processed

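Total RNA of SK-mel147 cells was read on 12 Affymetrix arrays. The deposited values are log2 intensities, and per the submitters' processing notes the authors used RMA, in a version not given in the sources used here. RMA sets all arrays to a common distribution, so differences are relative within an array, small changes are compressed at low intensity, and the number of arrays limits the precision. Of 33297 probe sets, 19460 carry 1 gene symbol and 1754 several; the brightest 1-symbol probe set by mean over all arrays stands for each of 18417 genes.

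Groups followed the sample titles. In R 4.3.3 with limma 3.58.1, targets (4 arrays each) were compared treating arrays of a hairpin as correlated (duplicateCorrelation, which estimated 0.157) and single hairpins (2 arrays each) in a fit of 6 groups, the control being the mean of both control hairpins. P-values were adjusted over all genes (Benjamini-Hochberg). Fits were tried on simulated data in which both H2AZ2 hairpins had the same effect. An effect of a single hairpin, beyond small random shifts, was not simulated. Figures were drawn with matplotlib 3.10.9 under Python 3.11.15.

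Genes described by array are the members called in either H2AZ2 comparison, then those called for a single hairpin by size, up to 25, and a set of collagens, SERPINH1, LOX, PLOD2 and P4HA1 called or not; likeness to COL4A1 is the highest Pearson r. The members and lists were chosen with earlier results of these data known. Alternatives were quantile normalization, removal of the dimmest 25% of genes, a variance trend, other blocks, and leaving out each array or hairpin. Promoter sequences are from RefSeq.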

Additional observations from a re-analysis of the deposited data

Results flagged for a closer look

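Among 48 groups of 4 arrays (the controls, the H2AZ2 and the H2AZ1 hairpins for each gene described by array), 2 had an array far from the other 3, where chance gives about 1 in 20. Both were replicate 1 of luciferase: COL4A1 read 8.01, with the nearest control array at 7.81, and COL4A2 read 9.28, with the nearest at 9.02. This array raised the control means, so both genes are lower in the other 3 control arrays.

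The response differed between sh_37 and sh_38, by limma's test of the difference, for 7 members (12.1%), where it did for 6.27% of all genes. Those differences on the log2 scale were 2.07 for P3H2, 1.03 for COL5A2, 0.89 for LOX, 0.55 for COL4A1, 0.54 for LOXL4, 0.45 for LOXL1 and 0.38 for P4HA2, all higher with sh_37 in both arrays. The response differed between the H2AZ2 and the H2AZ1 hairpins for SERPINH1 (0.77), LOXL4 (0.76), COL4A1 (0.71) and P4HA2 (0.57), and the arrays labelled sh_84 are part of that comparison. These 4 genes are 6.9% of the members, where 4.35% of all genes were called.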

How the results depend on the processing

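Counts of members called follow. The share of all genes called in each of these fits is not given here. A change in a count can therefore not be read as particular to the members. With quantile normalization, with the dimmest 25% of genes removed, with a variance trend, with the replicate number as a block and with each array's dimmest-gene level as a covariate (chosen after seeing the data), sh_83 called 1 member, LOX, where it had called 0. The replicate block gave 2 members for the H2AZ2 hairpins against control in place of 5: COL4A1 and SERPINH1 were called, while COL4A2 (adjusted p = 0.0603), COL5A1 (0.0655) and P4HA2 (0.0603) were not. The covariate gave 2 there, 2 in the arrays labelled sh_84 (COL5A2 and LOXL4, both lower) and 11 for sh_37 against sh_38. Leaving out a whole hairpin gave, for the H2AZ2 hairpins against control, 0 without scrambled, 1 without luciferase, 3 without sh_37 and 11 without sh_38, and for H2AZ2 against H2AZ1, 2 without sh_37, 12 without sh_38 and 1 without sh_84. Without sh_38 the H2AZ2 group is sh_37 alone, and without sh_37 it is sh_38 alone, so these fits also compare other hairpins. Fewer arrays entered them as well, and the cause of the changed counts was not tested. Leaving out 1 array gave 2 to 6 members for the H2AZ2 hairpins against control, 2 to 4 for H2AZ2 against H2AZ1, 8 to 13 for sh_37, 2 to 8 for sh_38, 3 to 7 for sh_37 against sh_38, and 0 to 0 in the other comparisons. Of 781 single-gene values under an alternative, 669 kept direction and stayed called or uncalled, 108 lost the call, 4 gained it and 0 reversed. The 669 include values never called: 25 of LOXL4 (H2AZ2 hairpins against control), and 25 of COL4A2 and 24 of COL5A1 (H2AZ2 against H2AZ1). Many alternatives left out an array outside the comparison, and the genes were chosen because these data called them. The counts are therefore no measure of how stable calls are in general. Nothing in the labels ties same-numbered arrays, and their deviations were over 0.1 correlated in 9 of 15 pairs of hairpins (-0.469 to 0.677), so the numbers were not used as pairs. The hint of pairing was uneven. All 6 pairs among scrambled, sh_37, sh_38 and sh_84 gave 0.375 to 0.677, while luciferase was below 0 in 4 of its 5. Of the 12 arrays, 10 correlated best with their own number. The 2 arrays of a hairpin deviate as mirror images and always count together, so these are not 12 separate checks. With 2 arrays a hairpin, and with 30 of 43 collagens dimmer than the median gene, small differences could not be seen.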
